A study of Schizosaccharomyces pombe with 29 samples.

Results

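The mitochondrial genome of the fission yeast Schizosaccharomyces pombe is a small DNA molecule, separate from the nuclear chromosomes, and its transcripts make up 37 of the 7016 rows of the RNA-seq table described here. The rows were chosen by name: every row whose name starts with SPMIT, and the rows 15S_rRNA, 21S_rRNA, atp6, atp8, atp9, cob1, cox1, cox2 and cox3, with antisense rows left out. They comprise 7 protein-coding genes, 2 rRNAs, 25 tRNAs and 3 rows known only by the numbers SPMIT.02, SPMIT.03 and SPMIT.06, which the sources used here do not pair with a gene. The gene annotation of assembly ASM294v3 also lists a ribosomal protein gene and an RNase P RNA gene on this genome, which the rule does not take.

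The study measured RNA in 8 libraries of cells that differ in RNase H, the enzyme activity that cuts the RNA strand of an RNA-DNA hybrid. Cells labelled pRnhA (3 libraries) overexpress rnhA, the RNase HI gene of Escherichia coli, rnh1∆rnh201∆ cells (2 libraries) lack both rnh1 and rnh201, which encode the cell's own RNase H1 and the catalytic subunit of RNase H2, and wild-type (WT) cells (3 libraries) carry neither change. Per the labels' protocols, the cells of all 3 groups grew in PMG, a minimal medium, and were kept at 34 °C during the last 3 hours before harvest. Total RNA was taken up with hot phenol and read from one end with 50-base reads. The labels do not give the promoter that drives rnhA, whether its product reaches mitochondria or the number of clones behind a strain. They also do not say whether replicates are separate cultures. The p-values therefore measure the spread between these libraries, which includes a difference in mating type within each group (below) and may otherwise be technical.

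Mitochondrial DNA encodes the membrane-bound core of the respiratory chain, and most other mitochondrial proteins are encoded in the nucleus and imported. In fission yeast the genome is copied into long precursor RNAs in which tRNAs lie between the mRNAs and rRNAs, and the precursors are cut at the ends of the tRNAs to free the RNAs on either side. The mature rRNAs and tRNAs serve the mitochondrion's own ribosomes. In bulk RNA, fewer mitochondrial genomes in a cell and less RNA made from each genome cannot be told apart. Reads of a mature tRNA and of an uncut precursor that crosses it also cannot be told apart in these values.

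The values are normalized counts that the authors rounded to at most 2 significant digits, an error of up to 5% for values of 10 and above. The normalized counts of a library summed to between 8392000 and 9456000. In rnh1∆rnh201∆ libraries rnh1 was at 36 and 23 and rnh201 at 7 and 12, against WT values of 290 to 320 for rnh1 and 300 to 390 for rnh201. The level of rnhA was not analysed here, so the pRnhA label was not checked. By their mating-type transcripts, 5 libraries were of M cells (replicates 1 and 2 of pRnhA and of WT, and rnh1∆rnh201∆ replicate 2) and 3 were of P cells (replicate 3 of pRnhA and of WT, and rnh1∆rnh201∆ replicate 1). Each strain had libraries of both types, and for each comparison the median over the tested members is also given within each type below.

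Mitochondrial mRNA and tRNA rows were lower in both RNase H strains than in WT when summed over a library, and the rRNA sums overlapped. The 7 protein-coding rows together reached 144000, 136500 and 152000 normalized counts in pRnhA libraries, 145700 and 151000 in rnh1∆rnh201∆ libraries, and 165400, 166200 and 180000 in WT libraries. The 25 tRNA rows together reached 1341, 1296 and 1478 in pRnhA libraries, 1558 and 1654 in rnh1∆rnh201∆ libraries, and 1931, 2080 and 2289 in WT libraries. In neither sum did the libraries of a strain overlap with those of WT, and the tRNA sums of pRnhA also lay below those of rnh1∆rnh201∆. The 2 rRNA rows summed to 220, 220 and 280 in pRnhA libraries, 294 and 237 in rnh1∆rnh201∆ libraries, and 256, 253 and 239 in WT libraries, so here the groups overlapped. SPMIT.02, SPMIT.03 and SPMIT.06 together reached 52500, 51900 and 55400 in pRnhA libraries, 63600 and 54400 in rnh1∆rnh201∆ libraries, and 63000, 66600 and 76000 in WT libraries. In that sum pRnhA lay below every WT library, and 1 rnh1∆rnh201∆ library lay within the WT range. These sums are of counts, not of levels per length, so they do not rank the classes, and no test was made of them. The labels do not say whether poly(A) selection or rRNA removal was used for these RNA libraries.

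**Figure D1:**
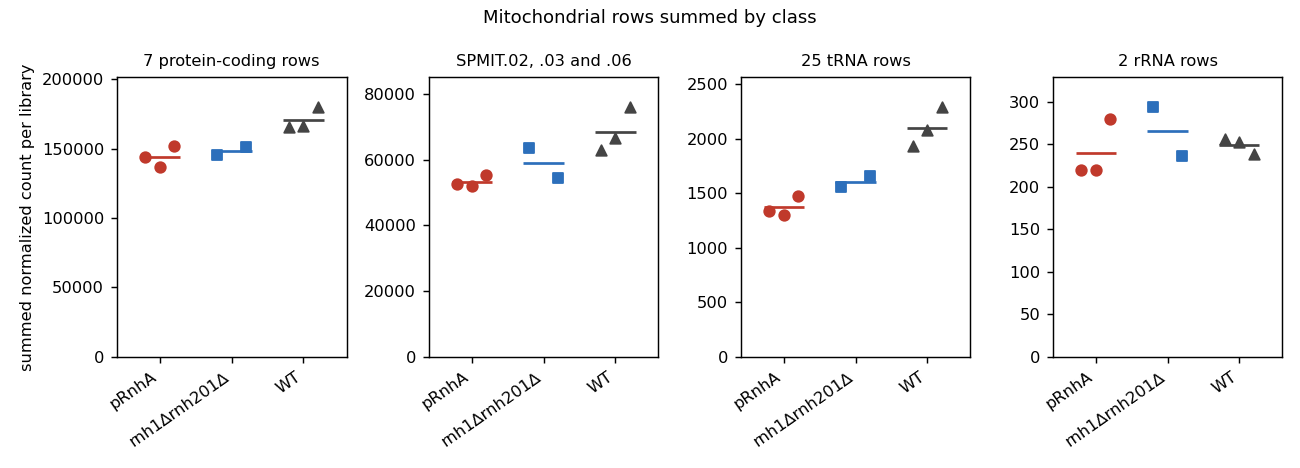
Summed normalized counts per library (vertical axis, starting at 0) of the protein-coding rows, of SPMIT.02, SPMIT.03 and SPMIT.06, of the tRNA rows and of the rRNA rows, for pRnhA (circles), rnh1∆rnh201∆ (squares) and WT (triangles), each symbol 1 library in order of replicate number and each line the group mean. The tRNA sums separate the 3 groups, with 1296 to 1478 in pRnhA, 1558 to 1654 in rnh1∆rnh201∆ and 1931 to 2289 in WT, and the rRNA sums of the 3 groups overlap.

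As a share of the whole library, the 37 rows took 2.35% ± 0.10 in pRnhA (SD, n = 3), 2.39% ± 0.08 in rnh1∆rnh201∆ (SD, n = 2) and 2.65% ± 0.21 in WT (SD, n = 3). The ranges were 2.26% to 2.46% in pRnhA, 2.33% to 2.45% in rnh1∆rnh201∆ and 2.44% to 2.86% in WT, so that pRnhA replicate 3 and rnh1∆rnh201∆ replicate 1 reached the lowest WT library, which was WT replicate 1. WT replicate 1 held the lowest member total among the WT libraries and WT replicate 3 the highest. The share of tRNA rows, at 0.0162% ± 0.0011 in pRnhA, 0.0183% ± 0.0004 in rnh1∆rnh201∆ and 0.0230% ± 0.0025 in WT, did not overlap between either strain and WT. The share of protein-coding rows was 1.70% ± 0.08 in pRnhA, 1.69% ± 0.01 in rnh1∆rnh201∆ and 1.87% ± 0.12 in WT, and here pRnhA replicate 3, at 1.79%, lay above WT replicate 1, at 1.75%. The non-overlap of the mRNA sums of pRnhA and WT therefore did not carry over to shares, and library totals averaged 8465000 in pRnhA and 9139000 in WT.

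For the comparison of single rows, limma-trend was fitted on log2(value + 1) over the 6456 rows with a mean of at least 1, and a row was called where its Benjamini-Hochberg adjusted p over all those rows was under 0.05. Of the members 33 were tested. The other 4, SPMITTRNAASN.01, SPMITTRNALYS.01, SPMITTRNAMET.01 and SPMITTRNASER.01, had means of 0.25, 0.50, 0.75 and 0.50 over the 8 libraries. In pRnhA against WT, 9 of the 33 tested members were called, all of them lower (27.3%), against 11.4% of all rows called lower, 8.88% called higher and 20.2% called in either direction. The log2 fold change lay below 0 for 28 of the 33, against 48.8% of all rows. For 17 of the 33 every pRnhA library lay below every WT library, against 18.1% of all rows. The median log2 fold change was -0.41 over the tested members and 0.00 over all rows tested. Each pRnhA library showed the difference: the median deviation of the members from the WT mean was -0.46, -0.50 and -0.38 on the log2 scale in the pRnhA libraries, against -0.08, -0.01 and 0.17 in the WT libraries.

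Among the ATP synthase subunits, atp6 and atp9 fell in pRnhA and atp8 was not called. These genes encode membrane-embedded subunits of the enzyme that makes ATP: Atp6 is subunit a of the proton channel, Atp9 forms the rotating ring of c subunits, and Atp8 is a small subunit beside Atp6. The normalized count of atp6 was 17000, 15000 and 15000 in pRnhA libraries, 16000 and 17000 in rnh1∆rnh201∆ libraries, and 20000 in each of the 3 WT libraries. For atp9 it was 12000, 9500 and 12000 in pRnhA libraries, 11000 in both rnh1∆rnh201∆ libraries, and 15000, 14000 and 15000 in WT libraries. For both genes every library of either strain lay below every WT library. The log2 fold change in pRnhA was -0.35 for atp6 (SE 0.09, adjusted p = 0.0286) and -0.40 for atp9 (SE 0.11, adjusted p = 0.0320). The row atp8 stood at 9000, 11000 and 12000 in pRnhA libraries, 9700 and 10000 in rnh1∆rnh201∆ libraries, and 7400, 9200 and 12000 in WT libraries. Its groups overlapped, and the log2 fold change in pRnhA was 0.18 with a 95% interval of -0.22 to 0.58.

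No mitochondrial gene of complex IV or complex III was called in pRnhA. The genes cox1, cox2 and cox3 encode the core subunits of cytochrome c oxidase, complex IV, and cob1 encodes cytochrome b, the only complex III subunit made in the mitochondrion. The normalized count of cox1 was 40000, 39000 and 46000 in pRnhA libraries, 49000 and 51000 in rnh1∆rnh201∆ libraries, and 50000, 54000 and 62000 in WT libraries. For cob1 it was 23000, 21000 and 24000 in pRnhA libraries, 24000 and 25000 in rnh1∆rnh201∆ libraries, and 29000, 27000 and 26000 in WT libraries. In both genes the pRnhA libraries lay below all WT libraries, with log2 fold changes of -0.41 for cox1 (adjusted p = 0.0903) and -0.27 for cob1 (adjusted p = 0.102). In cox3 the normalized count was 17000, 15000 and 17000 in pRnhA libraries, 14000 and 16000 in rnh1∆rnh201∆ libraries, and 19000, 18000 and 19000 in WT libraries. Its log2 fold change in pRnhA was -0.19 with a 95% interval of -0.42 to 0.03, although here too the groups did not overlap. For cox2 the normalized count was 26000 in each of the 3 pRnhA libraries, 22000 and 21000 in rnh1∆rnh201∆ libraries, and 25000, 24000 and 26000 in WT libraries. Of these 4 mitochondrial genes, cox2 alone overlapped between pRnhA and WT, at a log2 fold change of 0.06 with a 95% interval of -0.16 to 0.27.

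**Figure D2:**
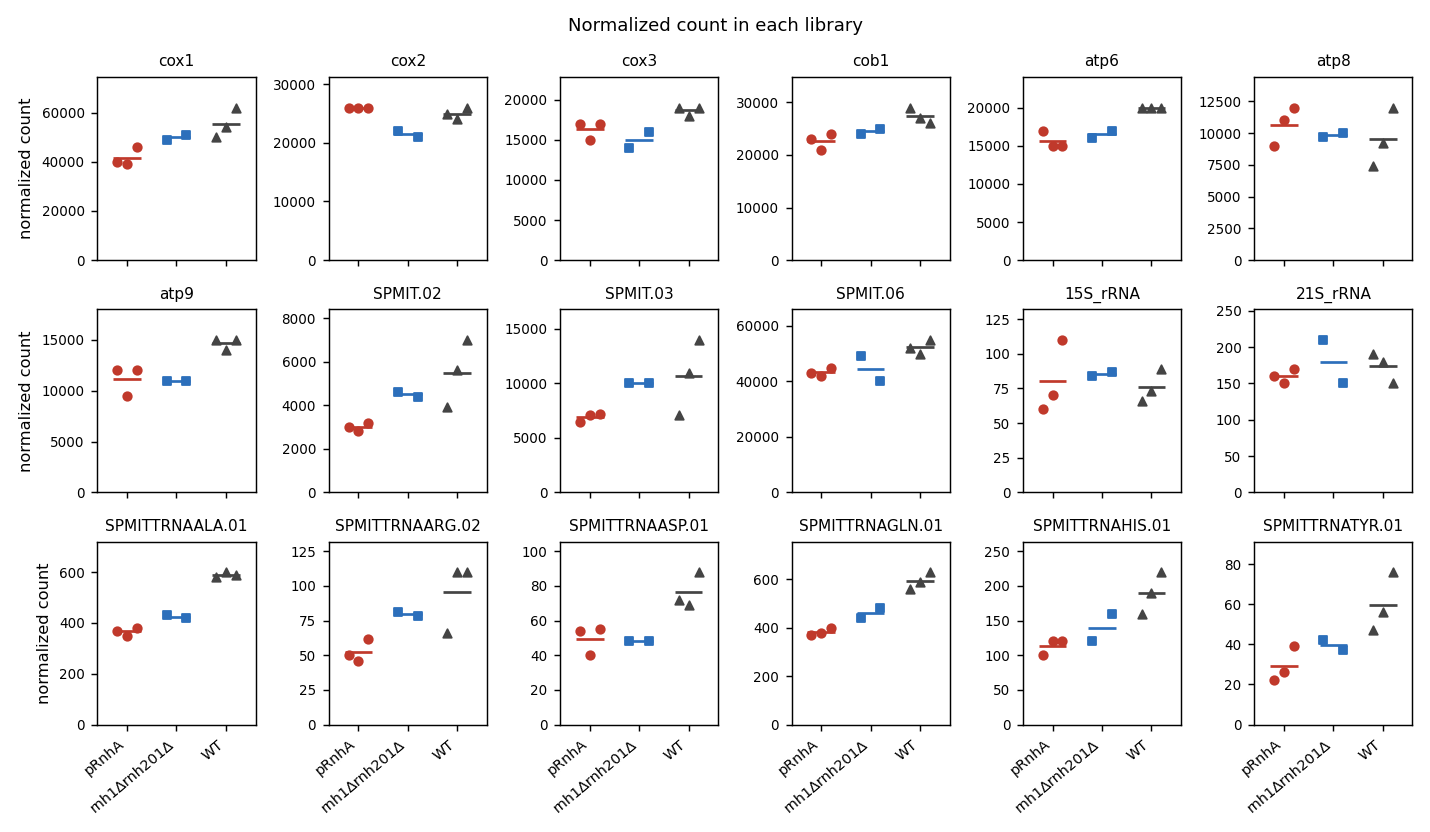
Normalized count in each library (vertical axes, each starting at 0) for the 7 protein-coding rows, SPMIT.02, SPMIT.03 and SPMIT.06, the 2 rRNA rows and the 6 tRNA rows called in pRnhA, with pRnhA (circles) left, rnh1∆rnh201∆ (squares) in the middle and WT (triangles) right, and lines at the group means. SPMITTRNAALA.01 and SPMITTRNAGLN.01 form 3 separate bands in the order pRnhA, rnh1∆rnh201∆, WT, and atp8, 15S_rRNA and 21S_rRNA overlap between all groups.

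Of the 3 numbered rows, SPMIT.02 fell in pRnhA, and it had the largest fall among the members with more than 1000 normalized counts. Its normalized count was 3000, 2800 and 3200 in pRnhA libraries, 4600 and 4400 in rnh1∆rnh201∆ libraries, and 3900, 5600 and 7000 in WT libraries. The log2 fold change in pRnhA was -0.84 (SE 0.18, adjusted p = 0.0182). SPMIT.03 stood at 6500, 7100 and 7200 in pRnhA libraries, 10000 in both rnh1∆rnh201∆ libraries, and 7100, 11000 and 14000 in WT libraries. For this row WT replicate 1 lay within the pRnhA range, and the log2 fold change of -0.57 was not called (adjusted p = 0.0874). SPMIT.06 stood at 43000, 42000 and 45000 in pRnhA libraries, 49000 and 40000 in rnh1∆rnh201∆ libraries, and 52000, 50000 and 55000 in WT libraries. All its pRnhA libraries lay below WT, at a log2 fold change of -0.27 (adjusted p = 0.209). The annotation of ASM294v3, whose mitochondrial record is from another isolate, has 3 reading frames inside introns of this genome, 2 in cox1 and 1 in cob1. It does not pair these frames with the numbered rows. Whether the numbered rows overlap cox1 or cob1 was therefore not determined here.

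The rRNA rows did not separate the groups. The row 15S_rRNA, for the rRNA of the small mitochondrial ribosomal subunit, had normalized counts of 60, 70 and 110 in pRnhA libraries, 84 and 87 in rnh1∆rnh201∆ libraries, and 66, 73 and 89 in WT libraries. For 21S_rRNA, the rRNA of the large subunit, they were 160, 150 and 170 in pRnhA libraries, 210 and 150 in rnh1∆rnh201∆ libraries, and 190, 180 and 150 in WT libraries. The log2 fold changes in pRnhA were 0.04 for 15S_rRNA (95% interval -0.49 to 0.56) and -0.11 for 21S_rRNA (95% interval -0.45 to 0.23). The sign of 15S_rRNA was not stable, with values of -0.216 without pRnhA replicate 3, -0.059 without WT replicate 1 and -0.0975 with the M libraries alone. That of 21S_rRNA stayed below 0 with any 1 library left out (-0.21 to -0.04). Under scaling to library totals it was 0.00. These intervals include changes as large as those of the called mRNAs. The means over the 8 libraries were 79.9 for 15S_rRNA and 170 for 21S_rRNA, against 10040 for atp8, the lowest protein-coding row. Whether rRNA was removed or poly(A) RNA selected is not given, so these counts may not reflect rRNA levels, which was not tested.

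The tRNA rows held 6 of the 9 called members and 21 of the 33 tested members. Of the 21 tRNA rows tested, 6 were called lower in pRnhA (28.6%), none higher, and 15 were not called. The share called lower was also 28.6% for the 7 protein-coding rows, and it was 11.4% over all rows. The median log2 fold change of the 21 was -0.63, and 19 lay below 0, against 48.8% of all rows. The alanine and glutamine tRNAs had the smallest adjusted p-values of all members. The normalized count of SPMITTRNAALA.01 was 370, 350 and 380 in pRnhA libraries, 430 and 420 in rnh1∆rnh201∆ libraries, and 580, 600 and 590 in WT libraries. For SPMITTRNAGLN.01 it was 370, 380 and 400 in pRnhA libraries, 440 and 480 in rnh1∆rnh201∆ libraries, and 560, 590 and 630 in WT libraries. Both rows ran in the order pRnhA, rnh1∆rnh201∆, WT with no overlap at either step. The log2 fold change in pRnhA was -0.69 for SPMITTRNAALA.01 (SE 0.06, adjusted p = 0.00185) and -0.63 for SPMITTRNAGLN.01 (SE 0.07, adjusted p = 0.00366).

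The other called tRNA rows were those for histidine, tyrosine, an arginine tRNA and aspartate. SPMITTRNAHIS.01 had normalized counts of 100, 120 and 120 in pRnhA libraries, 120 and 160 in rnh1∆rnh201∆ libraries, and 160, 190 and 220 in WT libraries. It fell by 0.73 on the log2 scale in pRnhA (SE 0.16, adjusted p = 0.0195). SPMITTRNATYR.01 was at 22, 26 and 39 in pRnhA libraries, 42 and 37 in rnh1∆rnh201∆ libraries, and 47, 56 and 76 in WT libraries. It had the largest fall of the called members, with a log2 fold change of -1.03 (SE 0.26, adjusted p = 0.0285). SPMITTRNAARG.02 was at 50, 46 and 62 in pRnhA libraries, 81 and 78 in rnh1∆rnh201∆ libraries, and 66, 110 and 110 in WT libraries, with a log2 fold change in pRnhA of -0.82 (SE 0.22, adjusted p = 0.0347). SPMITTRNAASP.01 was at 54, 40 and 55 in pRnhA libraries, 48 in both rnh1∆rnh201∆ libraries, and 72, 69 and 88 in WT libraries, with a log2 fold change in pRnhA of -0.62 (SE 0.18, adjusted p = 0.0420). In all 4 rows each pRnhA library lay below each WT library. Of the 15 tRNA rows not called, SPMITTRNALEU.02, chosen here after its values were seen, was the only tested member with every pRnhA library above every WT library, a pattern seen in 15.6% of all rows. Its normalized count was 64, 53 and 75 in pRnhA libraries, 47 and 52 in rnh1∆rnh201∆ libraries, and 48, 50 and 50 in WT libraries.

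These calls depended on single libraries in all but 2 rows. Over the 8 fits that each left out 1 library, SPMITTRNAALA.01 and SPMITTRNAGLN.01 were called in 8, SPMIT.02 in 5, SPMITTRNAHIS.01 in 4, atp6 and SPMITTRNATYR.01 in 2, and atp9, SPMITTRNAARG.02 and SPMITTRNAASP.01 in 1. The number of members called was 13 without WT replicate 1, 6 without pRnhA replicate 3, 4 without WT replicate 3 or either rnh1∆rnh201∆ library, and 2 without WT replicate 2, pRnhA replicate 1 or pRnhA replicate 2. The share of all rows called also varied between those fits, from 3.28% without pRnhA replicate 2 to 33.6% without WT replicate 1. It was 9.82% without pRnhA replicate 3 and 12.1% without WT replicate 3. The members called in those fits were all lower in pRnhA, with log2 fold changes of -0.71 to -0.65 for SPMITTRNAALA.01 and -0.67 to -0.58 for SPMITTRNAGLN.01. Within M cells 29 of 33 members had a mean below WT in pRnhA, at a median log2 difference of -0.44 (2 libraries against 2), and within P cells 24 of 33, at a median of -0.43 (1 library against 1). With the M libraries alone, limma called none of the 33 members and none of the other rows.

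In the authors' deposited table, whose adjusted p comes from DESeq2 and has 2 decimals, 14 members passed 0.05 as lower in pRnhA and none as higher, against 18.5% of rows lower and 14.0% higher. The 9 rows above were among them. The authors' deposited table further listed cox1 at -0.41, cob1 at -0.28, SPMIT.03 at -0.56, SPMIT.06 at -0.27 and SPMITTRNATRP.01 at -0.56 on the log2 scale.

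Scaling each library to its total in place of the authors' size factors put the all-row median of the log2 fold change in pRnhA at 0.11, and 375 rows were called lower and 1259 higher, against 733 lower and 573 higher with the authors' normalization. The share of calls that were lower was thus 23.0%, against 56.1%. Members called were then 5, all lower: SPMIT.02, SPMITTRNAALA.01, SPMITTRNAGLN.01, SPMITTRNAHIS.01 and SPMITTRNATYR.01. The log2 fold change of atp6 was -0.25 (adjusted p = 0.0640) and that of atp9 -0.29 (adjusted p = 0.0583). Such a scaling shifts all rows almost alike, so by construction the median of the members relative to that of all rows, -0.41, did not depend on it.

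Along the genome, the called rows that could be placed lay between cob1 and cox2, with rows that were not called among them. That stretch holds most of the placed rows that were tested, so the position does not set the called rows apart. The called rows SPMITTRNAARG.02 and SPMIT.02 could not be placed. The order of the genes, taken from ASM294v3, runs from 21S_rRNA and 15S_rRNA over cox1, cox3 and cob1 through a run of tRNAs to atp6. From there it runs by way of further tRNAs to atp8, atp9 and cox2. The mitochondrial record of ASM294v3 is from another isolate, and whether this order holds for the strains used was not checked. Of the 25 tRNA rows, 15 could be matched to that order because their amino acid has a single tRNA gene on this genome. SPMITTRNAHIS.01 lies directly after atp6 and SPMITTRNAALA.01 directly after atp9, so a called tRNA follows each of the called ATP synthase genes. Before atp6 lies a leucine tRNA gene and before atp9 a serine tRNA gene, neither of which could be matched to a single row. No leucine or serine row was called in pRnhA, and SPMITTRNASER.01 was not tested. SPMITTRNAGLN.01 precedes the ribosomal protein gene. A row named var1, probably that gene but not matched to it here, was at 7200, 6900 and 6600 in pRnhA libraries. In WT libraries it was at 5300, 6100 and 6800, and its log2 fold change in pRnhA of 0.19 was not called (limma adjusted p = 0.218). Of atp8, which lies among tRNAs and was not called, the following tRNA was SPMITTRNACYS.01, at a log2 fold change of -1.08 with a 95% interval of -2.10 to -0.06. The last gene of the order, cox2, follows SPMITTRNAGLU.01, which was at -0.37 with a 95% interval of -0.85 to 0.12.

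**Figure D3:**
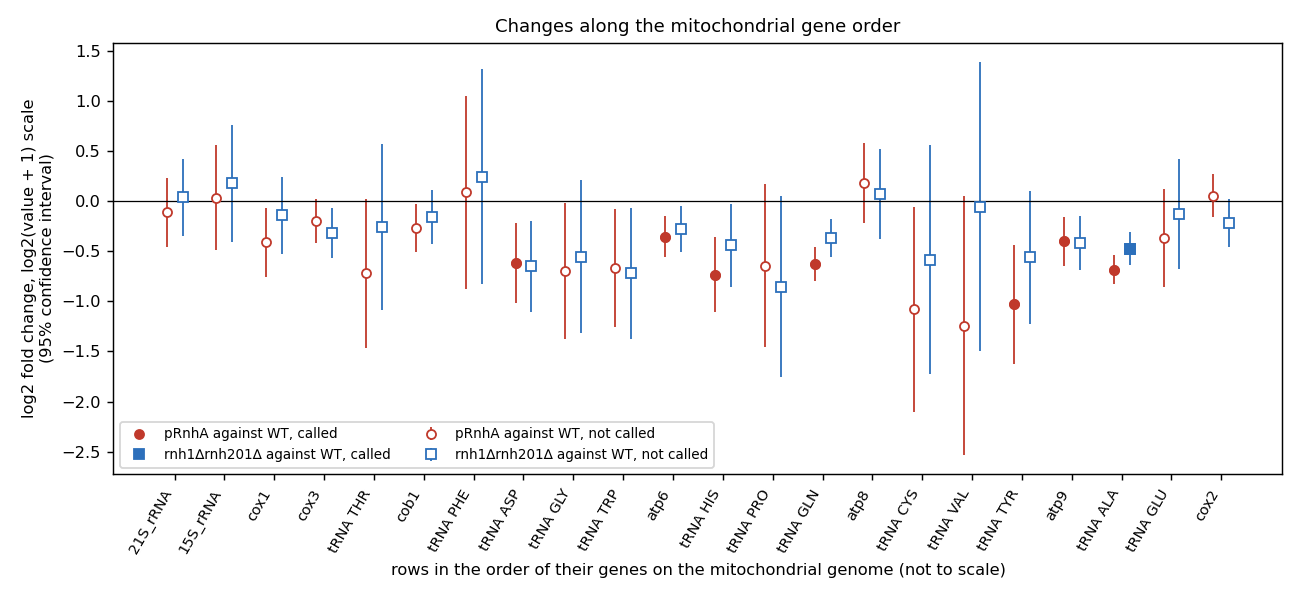
Log2 fold change on the log2(value + 1) scale with its 95% confidence interval (vertical axis) for pRnhA against WT (circles) and rnh1∆rnh201∆ against WT (squares), for rows matched to the gene order of the mitochondrial genome (horizontal axis, not to scale), with filled symbols for called rows. The called rows atp6, atp9 and the tRNA rows for aspartate, histidine, glutamine, tyrosine and alanine lie between cob1 and cox2, as do most of the rows shown. Among them in the order, atp8 is at 0.18 in pRnhA.

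The matched tRNA rows next to a protein gene were close in median to the others, with no test made. Of the 15, 6 are next to a protein gene, with a median log2 fold change in pRnhA of -0.70, and the 7 tested rows that are not had a median of -0.67. The rows SPMITTRNALYS.01 and SPMITTRNAASN.01, which lie between the rRNA genes, were the lowest of the 15, at means of 0.50 and 0.25 normalized counts over the 8 libraries.

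In rnh1∆rnh201∆ against WT, SPMITTRNAALA.01 was the single member called, at a log2 fold change of -0.47 (SE 0.07, adjusted p = 0.0482). This is 1 of 33 members lower (3.03%) and none higher, against 0.217% of all rows called lower, 0.0774% called higher and 0.294% called in either direction. The fold change lay below 0 for 27 of the 33 tested members, against 47.8% of all rows, and the median was -0.25, against 0.01 over all rows. For 12 of the 33 both rnh1∆rnh201∆ libraries lay below all WT libraries, against 13.9% of all rows. By class, the medians on the log2 scale were -0.22 for the 7 protein-coding rows, -0.37 for the 21 tRNA rows, -0.24 for the 3 numbered rows and 0.11 for the 2 rRNA rows. Without WT replicate 1, the members called were SPMITTRNAALA.01, SPMITTRNAGLN.01 and SPMIT.02, all lower. Without any other single library no member was called. The call of SPMITTRNAALA.01 also ended with a mating-type term (adjusted p = 0.0505) and with the replicate block (adjusted p = 0.0836).

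Among the protein-coding rows atp9 was at -0.41 (adjusted p = 0.111), cox3 at -0.32 (adjusted p = 0.147), atp6 at -0.28 (adjusted p = 0.162) and cox2 at -0.22 (adjusted p = 0.276), and for each of these both rnh1∆rnh201∆ libraries lay below all WT libraries. For cob1 the fold change was -0.16 and the libraries also did not overlap, and for cox1 it was -0.14 with overlap. The row atp8 was the only one of the 7 above 0, at 0.08 (adjusted p = 0.862), and its libraries overlapped. Of the tRNA rows, SPMITTRNAGLN.01 was at -0.37 (adjusted p = 0.0716) and SPMITTRNAASP.01 at -0.65 (adjusted p = 0.124), both without overlap. The authors' deposited table has 9 members lower past 0.05 in rnh1∆rnh201∆ and none higher, against 8.49% of rows lower and 6.94% higher. They are atp6, atp9, cox2, cox3, SPMIT.06, SPMITTRNAALA.01, SPMITTRNAASP.01, SPMITTRNAGLN.01 and SPMITTRNATRP.01. The difference from WT was smaller within M cells, where 23 of 33 members lay below 0 at a median of -0.16 (1 library against 2), than within P cells, where 28 of 33 did at a median of -0.44 (1 library against 1), a contrast that was not tested.

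The comparisons of both strains with WT use the same 3 WT libraries, so their shared direction is not independent. The direct comparison of rnh1∆rnh201∆ with pRnhA called none of the 33 members, against 0.232% of all rows called higher, 0.124% called lower and 0.356% called in either direction. At an unadjusted p under 0.05, limma had 4 members higher in rnh1∆rnh201∆ and 1 lower, 5 of 33, against 12.5% of all rows in either direction. The 4 were SPMIT.02 at 0.59 (adjusted p = 0.290), SPMITTRNAARG.02 at 0.60 (adjusted p = 0.375), SPMITTRNAGLN.01 at 0.26 (adjusted p = 0.261) and SPMITTRNAALA.01 at 0.21 (adjusted p = 0.266). The 1 lower was cox2, at -0.27 (adjusted p = 0.337). The libraries of the strains did not overlap in these 5 rows, which were named for their small p. Over all 33 members, 8 had both rnh1∆rnh201∆ libraries above all pRnhA libraries and 2 had both below, against 17.9% and 14.1% of all rows. Within M cells 8 of 33 members were lower in rnh1∆rnh201∆, at a median log2 difference of 0.27 (1 library against 2), and within P cells 15 of 33, at a median of 0.00 (1 library against 1). SPMIT.02 and SPMIT.03 were called higher in rnh1∆rnh201∆ when the 2 strains alone were in the fit, and SPMIT.02 without WT replicate 1. For atp9 the difference between the strains was -0.01 with a 95% interval of -0.28 to 0.26, and for atp6 it was 0.08 with an interval of -0.15 to 0.31.

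The nuclear genes for subunits of the same complexes were set beside the mitochondrial rows. Of the nuclear ATP synthase genes 14 were tested, and in pRnhA 2 fell, none rose and 12 were not called, a share of 14.3% beside the 11.4% of all rows called lower. The 2 encode the catalytic head of the enzyme, atp1 its alpha subunit and atp2 its beta subunit. The normalized count of atp1 was 4100, 3800 and 4000 in pRnhA libraries, 4700 and 4500 in rnh1∆rnh201∆ libraries, and 5700, 5500 and 5200 in WT libraries. For atp2 it was 11000, 9900 and 11000 in pRnhA libraries, 11000 and 9800 in rnh1∆rnh201∆ libraries, and 14000, 13000 and 13000 in WT libraries. The log2 fold change in pRnhA was -0.46 for atp1 (adjusted p = 0.00496) and -0.33 for atp2 (adjusted p = 0.0310), and the libraries of neither gene overlapped between pRnhA and WT. The median of the 14 genes was 0.01. In the authors' deposited table the same 2 of the 14 passed 0.05 as lower in pRnhA and none as higher, beside 18.5% of rows lower.

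Nuclear genes of complexes III and IV had positive medians in pRnhA. In complex III 2 of 9 tested genes rose, none fell and 7 were not called, beside 8.88% of all rows called higher, and the median log2 fold change was 0.12. They were qcr10, at 420, 480 and 450 in pRnhA libraries, against 270, 370 and 350 in WT libraries (log2 fold change 0.46, adjusted p = 0.0352), and qcr7, at 3400, 3400 and 3500 in pRnhA libraries, against 3000, 2800 and 3100 in WT libraries (0.21, adjusted p = 0.0495). Both encode small subunits of the complex. In complex IV 1 of 8 rose, which is 12.5% beside the same 8.88%, none fell and 7 were not called, at a median of 0.21. It was cox13, another small subunit, at 1900, 2100 and 2000 in pRnhA libraries, against 1600 in each of the 3 WT libraries (0.32, adjusted p = 0.0206). Against these stand the mitochondrial genes of the same complexes, cob1 at -0.27 and cox1, cox2 and cox3 at -0.41, 0.06 and -0.19, none of them called.

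**Figure D4:**
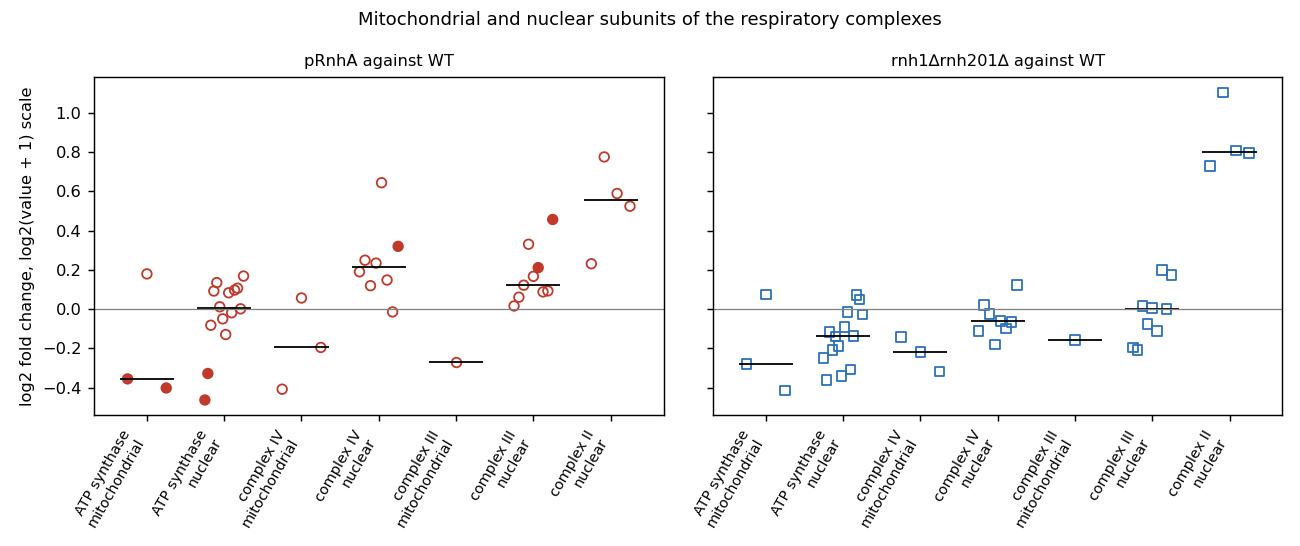
Log2 fold change on the log2(value + 1) scale (vertical axis) of mitochondrial and nuclear genes for subunits of ATP synthase and of complexes IV, III and II, for pRnhA against WT (left panel, circles) and rnh1∆rnh201∆ against WT (right panel, squares), each symbol 1 gene, filled where called, and black lines at the medians. In pRnhA the called genes of ATP synthase, atp6, atp9, atp1 and atp2, lie below 0 and those of nuclear complexes III and IV, qcr7, qcr10 and cox13, above 0. No gene of these lists is called by limma in rnh1∆rnh201∆.

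Complex II, succinate dehydrogenase, is made from nuclear genes alone. Limma called none of its 4 genes in either strain, and the median log2 fold change was 0.56 in pRnhA and 0.80 in rnh1∆rnh201∆. In the case of sdh2, which encodes the iron-sulfur subunit, normalized counts were 1000, 990 and 1400 in pRnhA libraries, 1400 in both rnh1∆rnh201∆ libraries, and 560, 410 and 1200 in WT libraries. WT replicate 3, a P library, stood well above the other WT libraries. The adjusted p of the 4 genes in rnh1∆rnh201∆ lay between 0.143 and 0.157, and both libraries of that strain were above all WT libraries in each gene, a pattern seen in 968 of all 6456 rows. At an unadjusted p under 0.05 limma had 1 of the 4 higher in pRnhA and 4 of 4 higher in rnh1∆rnh201∆. Over all 6456 rows, 1064 were higher in pRnhA and 701 in rnh1∆rnh201∆ at that threshold. The authors' deposited table has 3 of them past 0.05 as higher in rnh1∆rnh201∆, sdh1 at 0.58, sdh3 at 0.60 and sdh4 at 0.61 on the log2 scale, beside 6.94% of rows, and none in pRnhA.

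Limma also called no gene of the other 4 nuclear lists in rnh1∆rnh201∆, where the medians were 0.00 for complex III, -0.06 for complex IV and -0.14 for ATP synthase. At an unadjusted p under 0.05 it had 6 of 14 ATP synthase genes and 2 of 9 complex III genes lower, and none of 8 complex IV genes. Over all rows, 673 of 6456 were lower at that threshold. Of the 14 ATP synthase genes, 5 passed 0.05 in the authors' deposited table as lower in rnh1∆rnh201∆, beside 8.49% of rows: atp1 at -0.26, atp2 at -0.31, atp4 at -0.22, atp14 at -0.32 and atp17 at -0.30 on the log2 scale. The same table has qcr1 of complex III lower, at -0.19, and no complex IV gene past 0.05.

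A list of nuclear genes for handling mitochondrial DNA and RNA, which holds the mitochondrial RNA polymerase gene rpo41 and the genes of the PPR proteins that bind mitochondrial RNAs, had a median near 0. Of its 20 tested genes 1 rose in pRnhA, 1 fell and 18 were not called, at a median log2 fold change of -0.01. Each direction held 1 of 20 genes, a share under the 8.88% and 11.4% of all rows called higher and lower, so the list did not stand above the background. The gene that rose was pog1, for the mitochondrial DNA polymerase, at 910, 870 and 790 in pRnhA libraries, against 680, 640 and 680 in WT libraries (0.36, adjusted p = 0.0123). The gene that fell was ppr8, for a PPR protein, at 770, 770 and 830 in pRnhA libraries, against 1000, 930 and 1200 in WT libraries (-0.39, adjusted p = 0.0236). In rnh1∆rnh201∆ limma called none of the 20 at a median of -0.02, with 3 lower and 2 higher at an unadjusted p under 0.05. Over all 6456 rows, 673 were lower and 701 higher at that threshold. The authors' deposited table has ppr7, for another PPR protein, past 0.05 as lower there, at -0.22 on the log2 scale.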

How the data were processed

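RNA-seq values of 8 libraries were used, and the 18 DRIPc-seq and 3 small RNA samples of the series (29 in all) were left unused. The authors deposited a table that, per the file headers, gives for each gene its DESeq2 normalized count in each library, and for each strain a log2 fold change and an adjusted p-value. The normalized counts were treated as a score and not as raw counts, because the deposited values are rounded to at most 2 significant digits. Of the tools and builds the authors used, the submitters' processing notes name TopHat2 2.0.5, DESeq2, ASM294v2 and hg19. The raw counts and size factors were not used, so depth is unknown and no counting interval is given. Whether reads were counted by strand is not given in the sources used here. The authors' deposited fold changes name no reference. Of the rows past 0.05 in their table, 1960 of 1960 for pRnhA and 932 of 932 for rnh1∆rnh201∆ had the sign of the ratio to the WT mean, so WT was taken as the reference.

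All 8 libraries entered 1 limma-trend fit (limma 3.58.1, R 4.3.3) of log2(value + 1) over the 6456 rows with a mean of at least 1, with 5 residual degrees of freedom, no replicate block, two-sided tests and Benjamini-Hochberg adjustment over all rows within each of 3 comparisons. Fold changes on this scale understate the change of low rows. The fit was tested on simulated tables with known changes.

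Replicate numbers were checked over 5342 rows. Same-numbered pRnhA and WT libraries deviated together (correlations 0.289, 0.286 and 0.547). Numbers 1 and 2, all of M cells, correlated as well across as within (0.279 and 0.303 across). Both number 3 libraries were of P cells, and pRnhA replicate 3 also correlated with rnh1∆rnh201∆ replicate 1, another P library (0.499). The numbers thus did not identify pairs beyond mating type, and the fit reported took none. A replicate block left the 9 members called in pRnhA unchanged. For rnh1∆rnh201∆ only 2 numbers are shared and the correlations with WT were -0.119 and 0.299, so its numbers were not taken as paired.

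Members, nuclear lists and tests were chosen with earlier results of these data known. All protein-coding, rRNA and numbered members are named, as are the called tRNA rows, the 3 tRNA rows with the highest means, and at most 4 called genes of each nuclear list with the largest change. The gene cor1 was left out of the complex III list because ASM294v3 annotates it as a cornichon family protein. The listed genes cor2, dmr1, ppr9, ppr10, mpa1 and mti1 were not analysed here. ASM294v3, whose mitochondrial record is from another isolate, was used for names and gene order alone, so no coordinates or sequences are printed.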

Additional observations from a re-analysis of the deposited data

How the results depend on the processing

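Pseudocounts of 0.5 and 5, a minimum mean of 20, a mating-type term and the replicate block kept 9 members called in pRnhA against WT. With the block the 9 were the same rows, and 1287 rows were called. In that comparison the members called were 4 with no filter on low values, 4 with only the 2 groups compared in the fit, 5 under library totals, 5 under totals of the rows that are not members, 0 with the M libraries alone (an alternative chosen after seeing the data) and 14 in the authors' deposited table. Leaving out 1 library gave 2 to 13. The share of all rows called was 20.2% in the fit reported, 13.75% with no filter and 14.2% with only the 2 groups compared. It was 25.3% under library totals, 24.7% under totals of the other rows and 32.4% in the authors' deposited table. The rows called there, 1306 in the fit reported, were 0 with the M libraries alone, 1960 in the authors' deposited table and 212 (without pRnhA replicate 2) to 2173 (without WT replicate 1) with 1 library left out. The median log2 fold change under library totals and under totals of the other rows was -0.297 and -0.301 for all members and -0.161 and -0.165 for protein-coding rows, and the tRNA median was -0.440 in the authors' deposited table.

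In rnh1∆rnh201∆ against WT, where 1 member and 19 rows were called, no member was called (0) with a pseudocount of 0.5, with only the 2 groups compared, with a mating-type term, with the M libraries alone or with the replicate block, whose numbers are not taken as pairs. The count was 9 in the authors' deposited table and 0 to 3 with 1 library left out. Rows called were 12 and 55 at pseudocounts of 0.5 and 5, 213 under library totals, 203 under totals of the other rows, 4 with only the 2 groups compared, 932 in the authors' deposited table, and 3 to 1264 with 1 library left out, the highest without WT replicate 1. In the fit reported 14 rows were called lower and 5 higher, and under library totals 44 lower and 169 higher, so that calls in both directions were more and the share that were lower was 73.7% and 20.7%. The tRNA median was -0.126 with the M libraries alone and -0.426 to -0.229 with 1 library left out.

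In rnh1∆rnh201∆ against pRnhA, where no member and 23 rows were called, 2 members and 72 rows were called with only the 2 groups compared, and 35 rows with no filter. With 1 library left out the members called were 0 to 1 and the rows 5 to 93, and the median over the members 0.105 to 0.290, and it was 0.266 with the M libraries alone. The alternatives reversed no called direction among the named members. The cause of these shifts was not tested. Depth is unknown, so the counting error of a row could not be given.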
